A study of Mus musculus with 18 samples.

Results

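Of 18 individual mouse 2-cell embryos profiled on Affymetrix Mouse Gene 1.0 ST arrays, the 6 with the highest and the 6 with the lowest summed level of genes known from the 2-cell stage were compared across all other genes. The 12 embryos were selected on measured values. Each embryo was scored as the mean, over 14 probe sets annotated only to Zscan4, Tdpoz, Usp17-like, Zfp352 or Tcstv genes, of the difference in log2 units between its value in that embryo and its 18-embryo mean. Scores ran from 0.861 down to -0.463. The sixth and seventh embryos, on either side of the upper limit, scored 0.179 and 0.035, and the twelfth and thirteenth, on either side of the lower limit, scored -0.171 and -0.214. The groups are called high-scoring and low-scoring here, and the scoring genes are given only to describe them.

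All mice had a 129SVE background and all mothers were wild-type. Natural matings with 3 wild-type males gave 9 WT embryos, and matings with 3 Parg(110)-/- males gave 9 Parg(110)-/+ embryos, heterozygous for the loss of exons 2 and 3 of Parg, the gene of poly(ADP-ribose) glycohydrolase. Fathers are written WT1 to WT3 and PargA to PargC, and an embryo by its father and number. The high-scoring embryos were WT1-2, WT2-1, WT2-2, PargB-1, PargB-2 and PargC-3. The low-scoring embryos were WT1-1, WT1-3, WT2-3, PargA-1, PargC-1 and PargC-2. Each group thus held 3 embryos of each genotype from 4 fathers, and none of the 3 embryos of father WT3 entered the comparison. The 9 Parg(110)-/+ embryos scored between -0.437 and 0.861 and the 9 WT embryos between -0.463 and 0.605, so the scores of the genotypes overlapped over nearly their whole range. The labels give no age in hours, so embryos early and late in the 2-cell stage cannot be told apart by them.

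In the mouse, the embryonic genome is activated in earnest at the 2-cell stage, while RNA stored by the oocyte is degraded. A transient set of genes is transcribed then and falls silent soon after, among them the zinc-finger genes Zscan4 and Zfp352, the Tdpoz genes, which encode speckle-type BTB proteins, the Usp17-like deubiquitinases and the Tcstv genes. The first housekeeping transcripts of the embryo, including those for ribosomes, proteasomes and mitochondria, accumulate alongside.

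The scoring genes did not move as 1 set over the 18 embryos. Family means of the Tdpoz, Usp17-like and Tcstv probe sets correlated with each other at Pearson r of 0.499 to 0.526 (n = 18), as a description over arrays that share a normalization. Zfp352 correlated with them less, at 0.077 with Tdpoz, 0.263 with Usp17-like and 0.306 with Tcstv. The Zscan4 mean correlated with the other families at -0.055 to -0.268. Zscan4 was lower in the high-scoring than in the low-scoring embryos, with a difference of -0.153 on the log2 scale, against 1.51 for Zfp352, 1.18 for the Usp17-like, 0.79 for the Tdpoz and 0.751 for the Tcstv probe sets. The Zscan4 medians of both groups were close, at 0.0824 and 0.0778. A high score was thus not a high level of Zscan4. These differences describe the choice of embryos and are no result. Of the marker genes, Tdpoz2 had a lowest, median and highest log2 value of 11.15, 11.72 and 12.13 in the high-scoring embryos and 11.11, 11.30 and 11.83 in the low-scoring ones, and Zfp352 had 9.89, 11.62 and 11.93 against 8.18, 9.80 and 11.40. The groups overlapped in both. A second Tdpoz2 probe set had 8.82, 9.64 and 11.05 against 8.71, 8.96 and 9.73, also with overlap. Usp17la was well above the other embryos only in PargB-1, at 7.63, and PargC-3, at 8.07, and lay between 4.25 and 5.09 in the other 16. Without the Usp17la probe set the score chose the same 6 and 6 embryos.

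**Figure D1:**
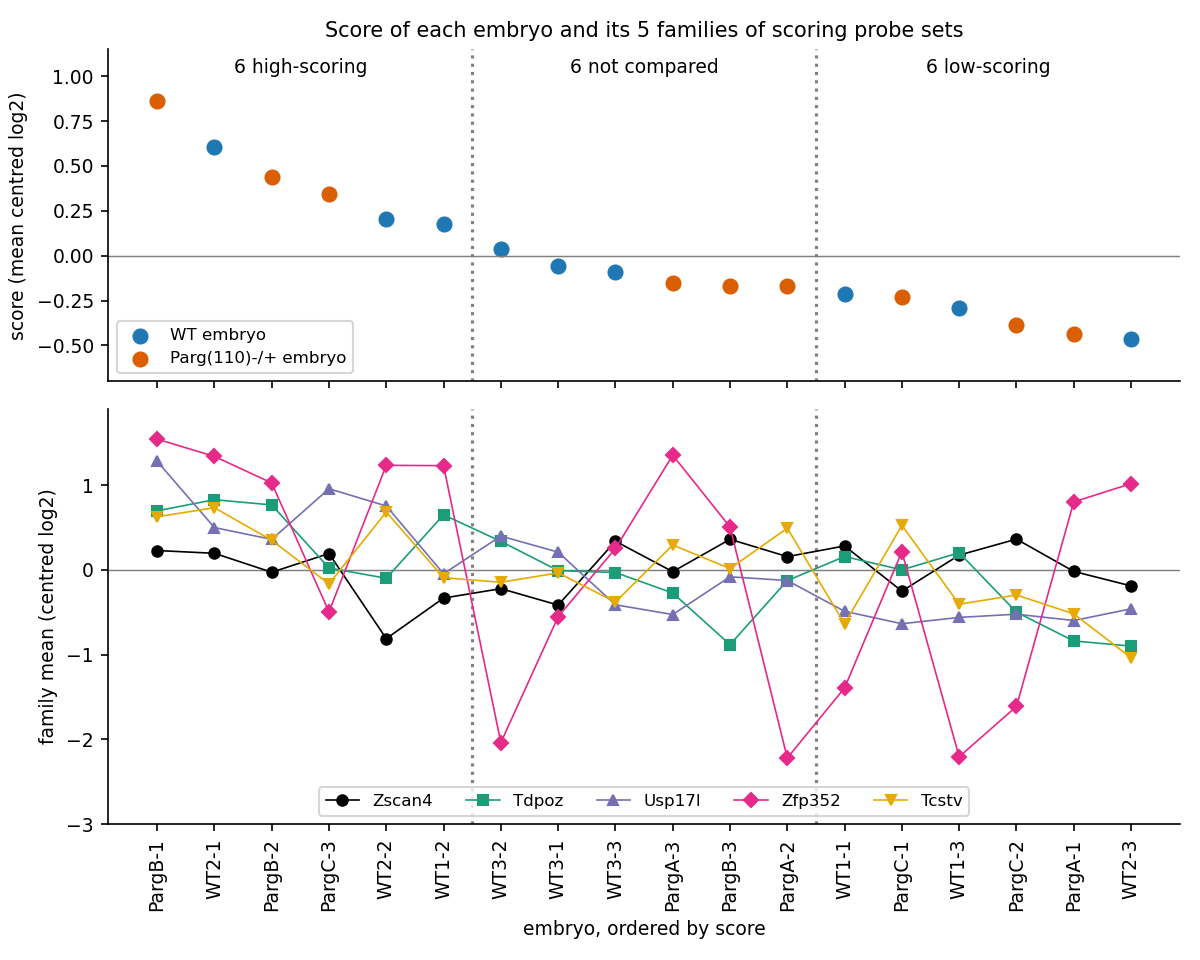
Score of each of the 18 embryos (upper plot) and mean of each family of scoring probe sets (lower plot), both as log2 values centred on the 18 embryos, with embryos ordered by score and dotted lines between the 6 high-scoring, the 6 not compared and the 6 low-scoring embryos. Scores run from 0.861 to -0.463 with both genotypes in each group, and the Zscan4 line does not follow the score.

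Levels over whole arrays hardly differed between the groups. The array medians were 6.34 to 6.50 in the high-scoring and 6.38 to 6.51 in the low-scoring embryos. The mean centred value of bright probe sets, those at or above the median of all probe set means (6.47), was -0.0047 against 0.0064, and over the 18 embryos it correlated with the score at Pearson r of -0.4657. Its part in the differences below was not tested. Lists of markers of other sources of RNA had mean log2 levels of 5.72 to 5.86 (high-scoring) and 5.70 to 5.86 (low-scoring) for 32 genes of spermatids and sperm, 5.26 to 5.57 and 5.35 to 5.54 for 14 genes of blood cells, and 6.13 to 6.34 and 6.21 to 6.38 for 22 genes of cumulus, granulosa and oviduct cells. Of these genes 1 passed an unadjusted p of 0.05, the cumulus gene Ptgs2, which was lower by -0.19 ± 0.08 (SE). The leukocyte gene Ptprc lay at 5.03 to 5.41 over the 12 embryos, a level that 20.9% of probe sets fell below. Other defining markers were brighter. The sperm gene Tnp1 lay above 27.3% of probe sets. Foxl2, Amh and Fshr, of the cumulus, granulosa and oviduct list, lay above 43.9%, 41.1% and 38.1%. The sperm genes Prm1 and Prm2 lay above 55.5% and 66.3% of probe sets, with Prm2 at 6.77 to 7.34 in the high-scoring and 6.98 to 8.32 in the low-scoring embryos, and the connective-tissue collagen gene Col1a1 lay above 73%, at 7.50 to 7.78 and 7.35 to 7.86. The part of such RNA in the results was not tested. For the blood list the median difference (-0.0118) and the mean (0.00369) differ in sign. The 8 Y-linked genes measured, which bear on the sex of the embryos, had mean levels of 4.97 to 5.45 and 4.97 to 5.74. Only 1 of the 8 was bright, and the sex of the embryos was not determined from them. At the unadjusted threshold 1 (12.5%) was lower, Uba1y (-0.27 ± 0.12), against 3.5% of all probe sets.

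The comparison asked which other genes varied with the score, in 28796 probe sets that hold no scoring symbol. With limma, 4 probe sets were higher in the high-scoring embryos at an adjusted p under 0.1, which is 0.0139% of those tested, and 0 were lower (0%), where the smallest adjusted p was 0.257. At an unadjusted p under 0.05, 949 probe sets were higher (3.3%) and 1009 lower (3.5%), together 1958 against the 1440 that a threshold of 0.05 would pass by count alone. Score and genes were read from the same arrays, so a p here measures how a gene varied with the score between embryos. Nothing says more of the embryos of a father than that they are separate embryos, and p-values measure the spread between them.

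A PRAME-like probe set was the first of the genes that rose. PRAME-like genes form large clusters of leucine-rich-repeat proteins that are active in germ cells and early embryos. The probe set is annotated to 6 genes at once, Gm13057, Gm13040, Gm13043, Pramel31, Pramel20 and Pramel16, which it cannot separate, and it is present 3 times on the array with identical values, so 3 of the 4 calls are 1 measurement. Its lowest, median and highest log2 value was 8.04, 9.55 and 10.27 in the high-scoring embryos and 5.83, 6.66 and 7.40 in the low-scoring ones. The groups did not overlap, and the 6 embryos between them lay at 6.14 to 8.10. The difference was 2.81 ± 0.39 (SE), or 7.01-fold, with an adjusted p of 0.0990 by limma, and was 2.93 ± 0.56 among WT and 2.69 ± 0.56 among Parg(110)-/+ embryos. A further probe set of the same 6 Pramel genes, with other values, differed by 3.01 ± 0.46 and missed the threshold with an adjusted p of 0.173.

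Prdm2, which encodes a zinc-finger protein with a PR/SET methyltransferase domain, was the other gene that rose. Its log2 values were 8.80, 9.28 and 9.77 (lowest, median, highest) in the high-scoring and 7.75, 8.03 and 8.47 in the low-scoring embryos. All 6 high-scoring embryos were above all 6 low-scoring ones, and the embryos not compared ran from 8.47 to 9.22, with WT3-1 (9.22) and PargB-3 (8.96) inside the high-scoring range. The difference was 1.20 ± 0.17 (SE), or 2.29-fold, with an adjusted p of 0.0990 by limma. It was 1.14 ± 0.26 among WT and 1.26 ± 0.26 among Parg(110)-/+ embryos. A second Prdm2 probe set varied far more within the groups, from 7.16 to 11.51 and from 7.72 to 9.96, and did not pass (0.98 ± 0.66, adjusted p = 0.867), so the probe sets of Prdm2 disagree. Both calls are close to the threshold. When any one of 10 of the 12 embryos was left out, neither gene passed. Prdm2 passed without PargB-2 alone, and the Pramel probe set without PargC-3 alone. Over these 12 fits the difference stayed between 1.10 and 1.29 for Prdm2 and between 2.64 and 3.08 for the Pramel probe set, with adjusted p from 0.0986 to 0.375 and from 0.0165 to 0.375. Over 15 other settings the differences were 0.60 to 1.29 (adjusted p from 0.0569 to 0.875) and 2.10 to 3.05 (0.0259 to 0.83).

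**Figure D2:**
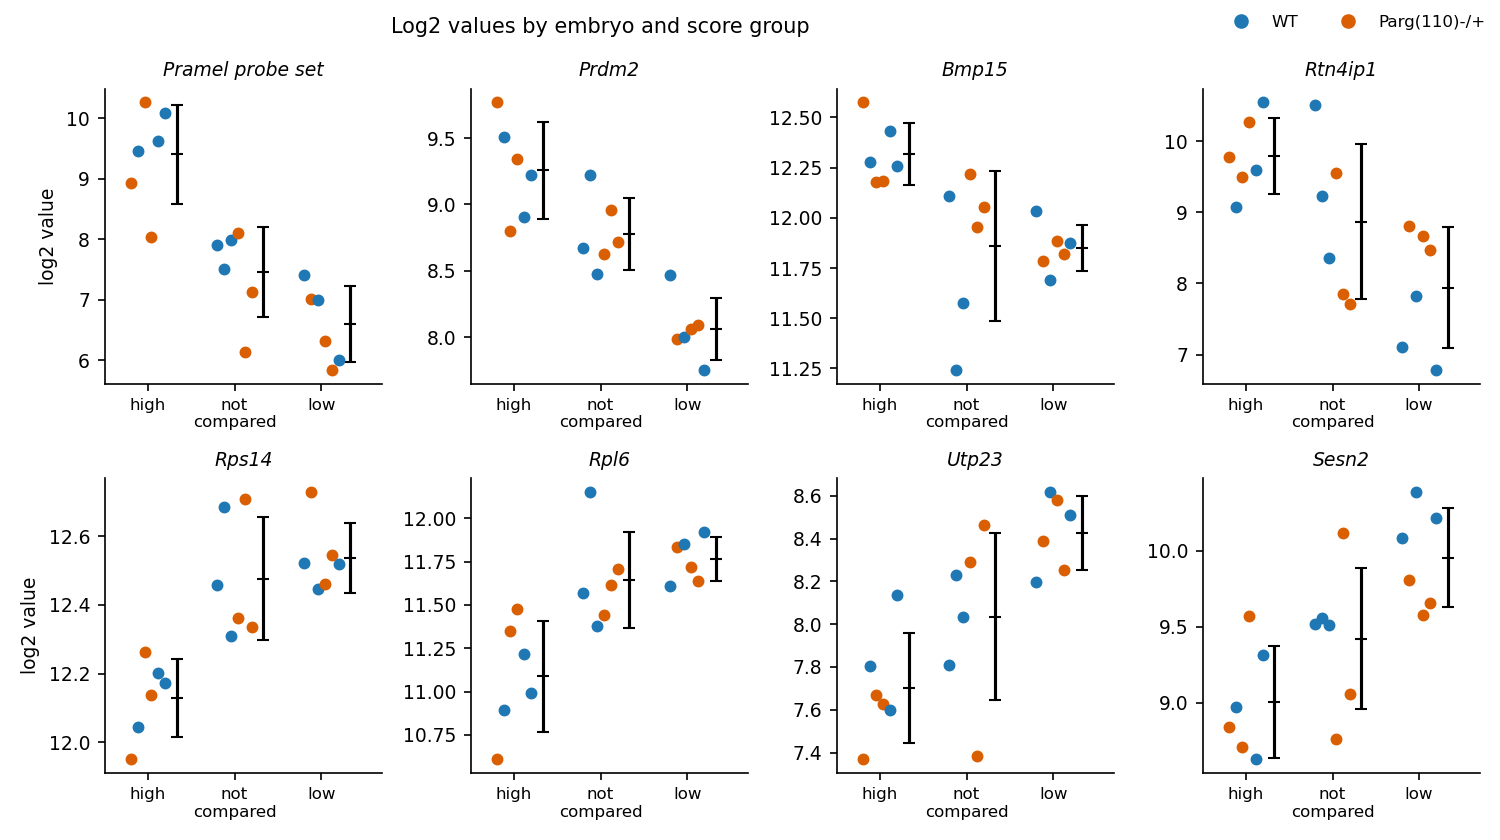
Log2 values of 8 probe sets in each embryo by score group (6 embryos each, coloured by genotype), with the mean and SD of each group as bars; each plot has its own axis. The Pramel probe set and Prdm2 passed the threshold, the other 6 did not, and in all 8 the high-scoring and low-scoring embryos do not overlap. All 8 were picked for a small p in these same embryos, so the lack of overlap is no further support.

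The next genes in order of p, each with the mean of its higher group at or above 6.47 and none past the threshold, are given as values. Among those higher was Bmp15, an oocyte growth factor whose RNA the embryo inherits, at 12.18, 12.27 and 12.57 in the high-scoring and 11.69, 11.85 and 12.03 in the low-scoring embryos (difference 0.47 ± 0.08, adjusted p = 0.257). The groups did not overlap, and the embryos not compared ran from 11.24 to 12.22, beyond the low-scoring group on its lower side. Rtn4ip1, a mitochondrial oxidoreductase, had the largest difference of these genes, 1.86 ± 0.38, with 9.08 to 10.55 against 6.78 to 8.81. Gtf2b, the general transcription factor TFIIB, differed by 1.54 ± 0.30, and its groups just overlapped (lowest high-scoring value 9.08, highest low-scoring value 9.10). Itpk1, an inositol phosphate kinase, differed by 1.32 ± 0.25, Cenpv, a centromere protein, by 1.26 ± 0.22, and Vdac3, a channel of the mitochondrial outer membrane, by 1.14 ± 0.20. Phactr4, a regulator of protein phosphatase 1 and actin, differed by 1.07 ± 0.17, Dock9, an activator of Cdc42, by 0.70 ± 0.13, the Polycomb component Pcgf5 by 0.63 ± 0.12 and the endocytic adaptor Epn2 by 0.39 ± 0.08. Adjusted p was between 0.189 and 0.383 for these 10 genes, and the groups did not overlap in 9 of them. Over all tested probe sets, 0.24% did not overlap with the high-scoring group higher and 0.215% with it lower.

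Among the 10 genes lower in the high-scoring embryos with the smallest p, several encode parts or makers of ribosomes. Rps14, a protein of the small ribosomal subunit, had log2 values of 11.95, 12.15 and 12.26 in the high-scoring and 12.45, 12.52 and 12.73 in the low-scoring embryos (difference -0.41 ± 0.07, adjusted p = 0.257). Every high-scoring embryo lay below every low-scoring one. Rpl6, of the large subunit, had 10.61, 11.11 and 11.48 against 11.61, 11.78 and 11.92 (-0.67 ± 0.14, adjusted p = 0.337). Its groups did not overlap either. The array holds 3 probe sets of Rpl6, and ribosomal protein probe sets can also read the many near-identical processed copies of these genes, so the copy measured is uncertain. Utp23, of the complex that processes the small-subunit RNA, differed by -0.72 ± 0.12, the nucleolar protein gene Rbm28 by -0.65 ± 0.13 and Wdr55, also nucleolar, by -1.44 ± 0.29. Noa1 and Mterf4, which act in assembly of the mitochondrial ribosome, differed by -0.81 ± 0.16 and -0.64 ± 0.13. The others were Prep, a prolyl peptidase (-0.87 ± 0.17), Sesn2, a stress-induced inhibitor of the growth kinase complex mTORC1 (-0.95 ± 0.19), and Spsb4, a substrate adaptor of a ubiquitin ligase (-0.72 ± 0.14). The groups did not overlap in 9 of these 10 genes. For the 20 genes, the difference kept its sign in all 619 values computed under alternatives. They were picked by their p in these same embryos, which most alternatives use again. Neither the kept sign nor the lack of overlap is therefore support for them.

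Gene lists were described by counts and medians, since few genes passed alone. The lists were chosen with earlier results of these data known, and genes of 1 list vary together between embryos, so their counts are not independent. Over all 28796 probe sets the median difference was -0.01 and 53.6% lay below 0. Among the 14390 bright ones, to which most list members belong, the median was -0.01, and 5.19% were higher and 5.36% lower at an unadjusted p under 0.05. No member of any list passed the adjusted threshold in the comparison of 6 with 6 embryos.

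Genes of RNA inherited from the oocyte lay mostly above 0. Of 59 maternal oocyte genes measured, 50 were higher and 9 lower in the high-scoring embryos, with a median of 0.165. At the unadjusted threshold 12 (20.3%) were higher and 0 lower. Besides Bmp15, the member with the smallest p was Btg4, which recruits the deadenylase that removes maternal mRNA (12.05, 12.18 and 12.46 against 11.61, 11.88 and 12.10, difference 0.36 ± 0.09). Further members, chosen after their values were seen, were Nlrp9a at 0.60 ± 0.16 and Nlrp4e at 1.09 ± 0.33, of the NLRP family of oocyte proteins, and Tcl1, a co-activator of the kinase Akt, at 0.58 ± 0.19. The mean of the list in each embryo, centred on the 18 embryos, ran from -0.00544 to 0.406 in the high-scoring group and from -0.217 to 0.07 in the low-scoring group. The groups overlapped, with WT1-1 and PargA-1 the highest of the low-scoring embryos and PargB-1 and WT2-1 well above all others. The list median was 0.216 among WT and 0.193 among Parg(110)-/+ embryos. Within the fathers with embryos in both groups it was 0.0464 (WT1), 0.3 (WT2) and 0.0417 (PargC).

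Factors that store or clear maternal mRNA resembled them in the counts, with 35 of 51 genes higher, a median of 0.0901, and 11 higher (21.6%) against 1 lower at the unadjusted threshold. The list mean in each embryo ran from -0.147 to 0.109 in the high-scoring and from -0.284 to 0.107 in the low-scoring group. Nearly the whole high-scoring range thus lay inside the low-scoring one. Btg4 belongs to both lists. Ythdc1, a reader of methylated RNA, differed by 0.49 ± 0.13. Cnot6l and Cnot7, deadenylases of the CCR4-NOT complex, which were named after their values were seen, differed by 0.45 ± 0.15 and 0.185 ± 0.07. Leaving out PargC-1 moved this median to 0.0381 and leaving out PargB-2 to 0.166, so its size depended on single embryos.

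Cytosolic ribosomal proteins lay almost wholly below 0. Of 56 measured, 52 were lower in the high-scoring embryos, with a median of -0.214. At the unadjusted threshold 16 (28.6%) were lower and 0 higher, and in 3 of them the groups did not overlap. Beside Rps14 and Rpl6 these included Rpl34 (-0.22 ± 0.06), which was named after its values were seen. The list mean ran from -0.422 in PargB-1 to 0.0886 in PargB-2 among high-scoring embryos, and from 0.0285 to 0.189 among low-scoring ones, so PargB-2 alone of the high-scoring embryos reached into the low-scoring range. The median was -0.208 among WT and -0.212 among Parg(110)-/+ embryos, and -0.121, -0.176 and -0.227 within the fathers WT1, WT2 and PargC. It was -0.161 without PargB-1.

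Ribosome biogenesis had 67 of 82 measured genes below 0 and a median of -0.225, and 14 (17.1%) were lower and 0 higher at the unadjusted threshold. Nvl, an ATPase of large-subunit assembly, had 8.82, 9.44 and 10.15 in the high-scoring and 9.99, 10.20 and 10.63 in the low-scoring embryos (-0.73 ± 0.20, adjusted p = 0.495). Ddx21, a nucleolar RNA helicase, had 8.31, 9.23 and 9.88 against 9.76, 9.97 and 10.02 (-0.79 ± 0.22, adjusted p = 0.505). Both genes overlapped between the groups. One embryo weighed heavily here. The list mean was -0.657 in PargB-1 and between -0.231 and 0.0502 in the other high-scoring embryos, against -0.000934 to 0.167 in the low-scoring ones, and without PargB-1 the list median was -0.139. It was -0.145 among WT and -0.284 among Parg(110)-/+ embryos, and within the fathers WT1, WT2 and PargC -0.11, -0.171 and 0.0174, so it was not below 0 within PargC.

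Oxidative phosphorylation had the lowest median of all lists, -0.256, with 60 of 74 genes lower and 8 (10.8%) lower against 1 higher at the unadjusted threshold. Atp5j, a subunit of the ATP synthase, had 8.46, 9.10 and 9.52 against 9.52, 10.10 and 10.59 (-1.06 ± 0.22, adjusted p = 0.383), and its groups met at 9.52. Uqcrfs1, the Rieske protein of complex III, differed by -0.49 ± 0.13. The 1 higher member, named after its values were seen, was Ndufa10 of complex I, at 0.93 ± 0.28. Within the fathers WT1, WT2 and PargC the list median was -0.168, -0.24 and -0.289. The list mean ran from -0.334 to 0.171 in the high-scoring and from -0.0326 to 0.304 in the low-scoring embryos. PargB-2, at 0.171, alone of the high-scoring embryos reached into the low-scoring range.

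Proteasome subunits, the machinery of regulated protein breakdown, had a median of -0.214, with 25 of 38 lower and 5 (13.2%) lower at the unadjusted threshold against 0 higher. Psmc4, an ATPase of the regulatory particle, differed by -1.75 ± 0.45 and Psmd6, of its lid, by -0.93 ± 0.25. The proteasome mean ran from -0.544 in PargB-1 to 0.126 in PargB-2 among high-scoring embryos, and from 0.0383 to 0.233 among low-scoring ones. Again only PargB-2 reached into the low-scoring range. Splicing factors had a median of -0.125, with 48 of 67 lower and 8 (11.9%) lower against 1 higher. Snrpd2, a core protein of the spliceosomal snRNPs, had 10.33, 11.47 and 12.17 against 12.03, 12.25 and 12.43 (-0.86 ± 0.24, adjusted p = 0.508). Splicing factors were the 1 list of the 25 whose mean separated the groups, at -0.265 to -0.0482 in the high-scoring and 0.0232 to 0.169 in the low-scoring embryos, with no overlap. Translation factors had a median of -0.124, with 31 of 44 lower, 6 (13.6%) lower and 3 (6.82%) higher at the unadjusted threshold. The median was -0.0619 without WT1-3. They included Eif3b (-0.51 ± 0.11) on the lower side and Eif4e1b, the oocyte form of the cap-binding protein (0.38 ± 0.11), on the higher.

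Of 13 control genes, usual references of expression, 10 lay below 0 and 3 above, with a median of -0.141. At the unadjusted threshold 3 (23.1%) were lower, among them B2m (-0.86 ± 0.21), and 0 higher. Of all bright probe sets, 5.36% were lower at that threshold. Actb (0.36 ± 0.27) and Ywhaz (0.32 ± 0.15), named after their values were seen, lay above 0. Within the fathers WT1, WT2 and PargC the median was 0.0069, -0.115 and -0.212. Quantile normalization brings the arrays close to 1 distribution. It did not make the deposited arrays identical, since their medians ran from 6.34 to 6.53. A level here is still relative to the other transcripts of the embryo. Less of a transcript therefore cannot be told apart from more of the others. The part of this in the lower housekeeping lists was not tested.

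**Figure D3:**
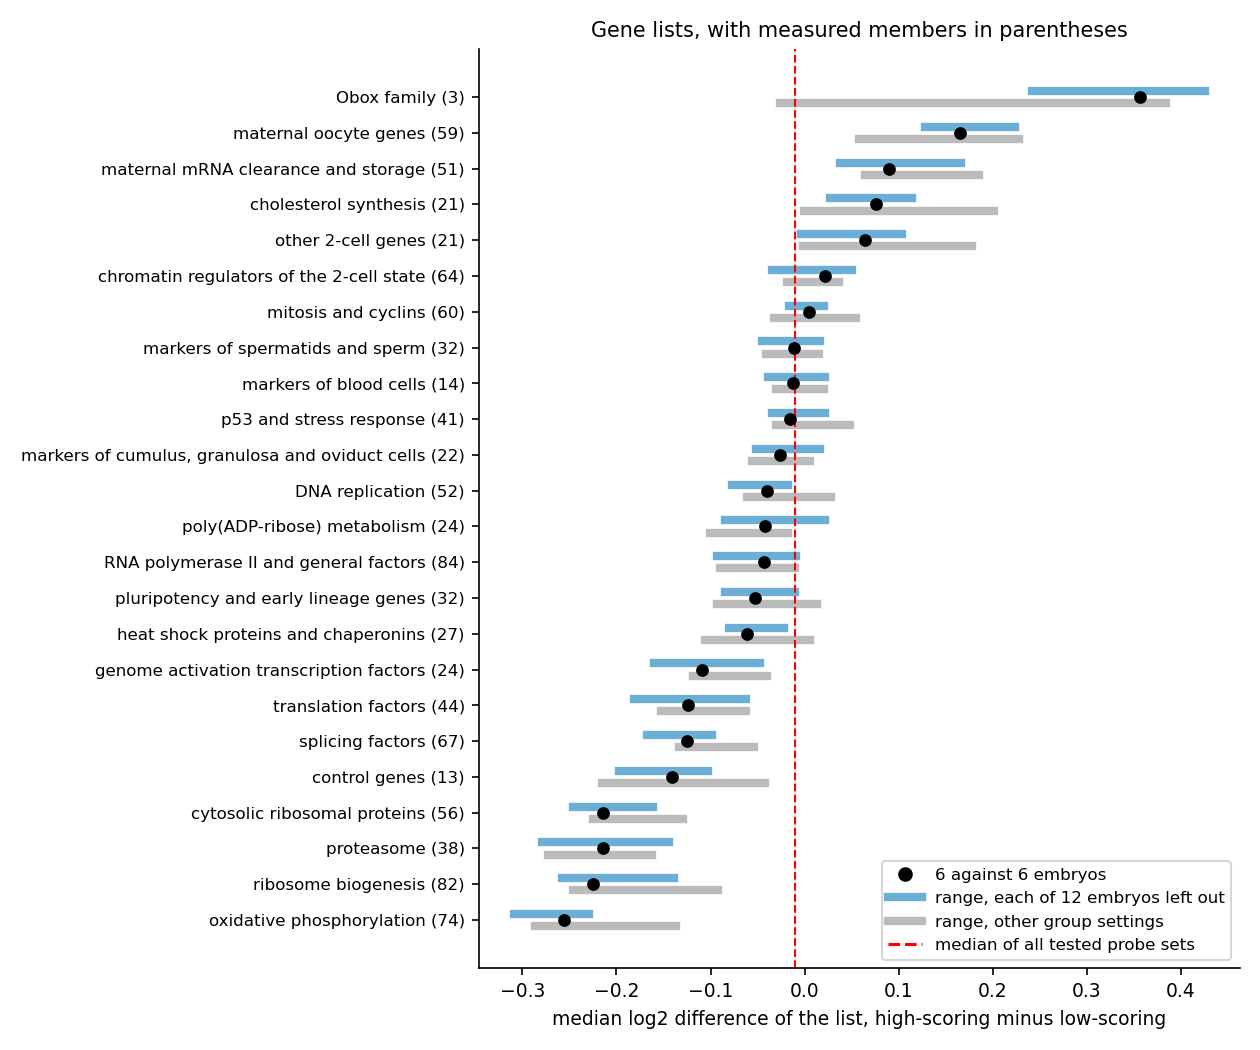
Median log2 difference (high-scoring minus low-scoring) of 24 gene lists with the number of measured members, the range when each of the 12 embryos is left out (blue) and the range over the other group settings (grey), with the median of all tested probe sets (-0.01) as a dashed line. Oxidative phosphorylation (-0.256), ribosome biogenesis (-0.225), the proteasome (-0.214) and ribosomal proteins (-0.214) stay below 0 in both ranges, and maternal oocyte genes (0.165) stay above. Most settings use the same embryos again, so a kept sign is no further support.

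Of 45 other genes listed as known from the 2-cell stage, 21 were measured by a probe set annotated to that gene alone. These 21 did not move together with the score. Their median was 0.0648, with 11 higher and 10 lower, 2 (9.52%) higher and 0 lower at the unadjusted threshold, and it was -0.00358 without WT2-1. The difference rested on a few genes. Gm5662, an Eif1a-like gene of the 2-cell stage, had 9.97, 10.86 and 11.45 in the high-scoring and 5.68, 8.03 and 10.65 in the low-scoring embryos (2.49 ± 0.70, adjusted p = 0.512), and the membrane protein gene Tmem92 differed by 1.26 ± 0.57. The groups overlapped in both. Probe sets annotated to several genes at once did not enter this list. Among them, probe sets shared by Gm5662, Eif1a and other genes rose with the score over the 18 embryos. Called slopes were 0.36 ± 0.07 and 0.43 ± 0.09 log2 per unit of score (adjusted p = 0.0898 and 0.0935 by limma). Neither passed without PargB-1. Of the near copies of scoring genes that did not enter the score, Tdpoz8 differed by 0.91 ± 0.30 and AF067063, of the Tcstv neighbourhood, by 0.20 ± 0.18. Obox genes, homeobox genes of the oocyte and early embryo, had 3 measured members, all higher but none past the unadjusted threshold, with a median of 0.357. This median was 0.418 among Parg(110)-/+ but -0.145 among WT embryos, -0.348 within the father WT1, and -0.0256 when embryos were scored by family means.

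The medians of regulators and other lists were nearer 0, and most moved by over 1.5 times or changed sign when 1 embryo was left out. Transcription factors of genome activation had a median of -0.109 over 24 genes (-0.0479 without PargC-2), with 2 (8.33%) higher and 1 (4.17%) lower at the unadjusted threshold. Chromatin regulators of the 2-cell state had a median of 0.0219 over 64 (-0.035 without PargA-1), with 6 (9.38%) higher and 2 (3.12%) lower. Tead4, a transcription factor of the first lineage decision, differed by -1.002 ± 0.35, and Klf4 by 0.51 ± 0.19. Medians were -0.0426 for 84 genes of RNA polymerase II and its general factors, -0.0403 for 52 of DNA replication, 0.0048 for 60 of mitosis, -0.0615 for 27 chaperones, 0.0755 for 21 of cholesterol synthesis, -0.053 for 32 of pluripotency and early lineages and -0.0155 for 41 of the p53 and stress response. Poly(ADP-ribose) metabolism, the pathway altered in the Parg(110)-/- fathers, had a median of -0.0423 over 24 genes (0.0213 without PargB-1). At the unadjusted threshold 1 (4.17%) was higher and 2 (8.33%) lower. Myc differed by -1.05 ± 0.31, and Ccne2, the S-phase cyclin E2, by 1.01 ± 0.27, neither past the adjusted threshold.

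**Figure D4:**
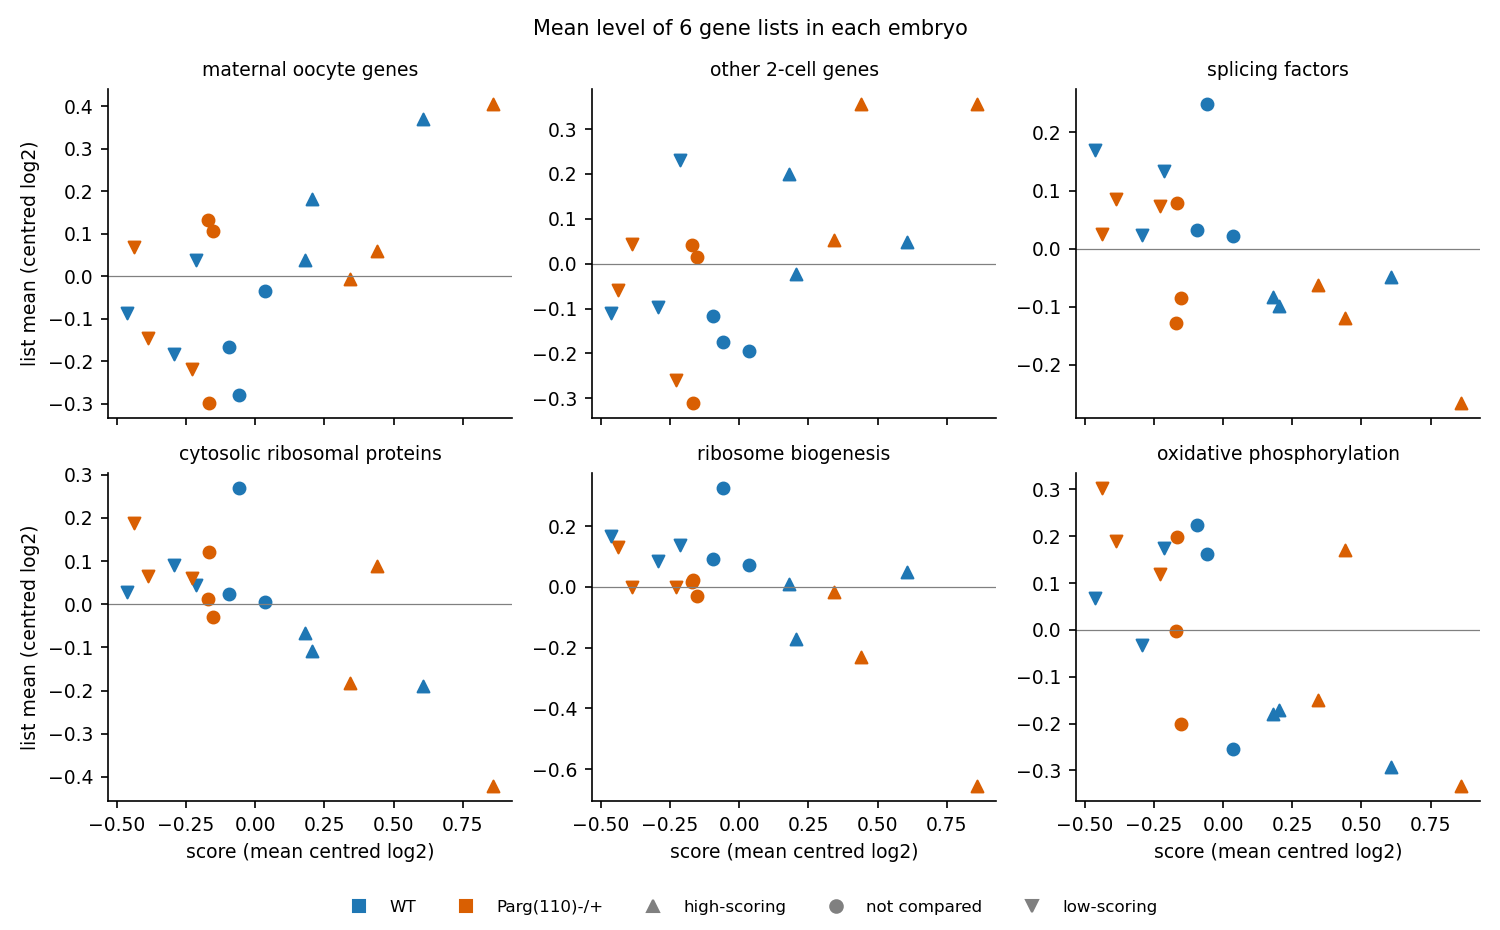
Mean centred log2 value of 6 gene lists in each of the 18 embryos against the score of the embryo; colour marks genotype and marker shape the score group. Splicing factors separate the high-scoring (-0.265 to -0.0482) from the low-scoring embryos (0.0232 to 0.169), ribosomal proteins do so but for PargB-2 (0.0886), and PargB-1 lies far below the rest for ribosome biogenesis (-0.657).

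With the score itself as the variable, over all 18 embryos, 23 probe sets had a positive slope (0.0799% of those tested) and 22 a negative one (0.0764%) at an adjusted p under 0.1. They hold the 4 probe sets of the comparison of groups. Slopes are in log2 per unit of score. The smallest p was that of Smap1, a regulator of the GTPase Arf6 in endocytosis, at 1.503 ± 0.19 (SE, adjusted p = 0.00876), followed by Prkch, protein kinase C eta, at 1.29 ± 0.17 and Prdm2 at 1.35 ± 0.19. On the other side stood Elovl6, an elongase of fatty acids, at -1.79 ± 0.26. Of the 45 probe sets, 9 carry the symbol of a cytosolic ribosomal protein, and all 9 slopes were negative. They stand for 5 genes, with Rpl36al, Rpl6, Rps27 and Rps3a1 present 2 times each, and all but those of Rpl6 and Rps14 are annotated to a second gene too. The slopes included Rpl6 at -0.85 ± 0.15 and Rps14 at -0.49 ± 0.09. With genotype as a covariate 37 of the 45 passed. Without PargB-1, the embryo with the highest score, 6 of the 45 passed, namely Smap1, Prdm2 and the 4 Pramel probe sets, so none of the ribosomal protein calls held without that embryo.

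Likeness to the score over the 18 embryos was ranked with 1 probe set per gene, the brightest annotated to that gene alone. Only genes whose higher group averaged at or above 6.47 were ranked. The genes whose levels ran most like the score were Smap1 (Pearson r = 0.887), Prkch (0.873), Plk2 (0.818), Ccdc186 (0.803) and Naa50 (0.795). Those that ran most against it were Elovl6 (-0.855), Rpl6 (-0.815), Rps14 (-0.80), Aurkc (-0.794) and Hnrnph2 (-0.792). The called probe sets of Prdm2 (0.864) and of the Pramel genes (0.806), which that limit leaves out, ran about as close to the score. These values are descriptions, since they are the extremes of many genes measured on the arrays that gave the score.

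The promoters of the genes on either side were searched for short motifs, none of which contains another. The RefSeq promoters of GRCm38.p6, from 250 bases before to 50 after the start, were found for 15554 of 19925 genes. The motif CCGGAAG, a core of ETS factor sites, on either strand, was in 28.1% of 424 promoters of bright genes lower at an unadjusted p under 0.05. It was in 11.3% of 461 promoters of bright genes higher at that threshold, in 17.5% of all 8203 bright genes and in 12.5% of all 15554. The GC box GGGCGG was in 59% of the lower, 67% of the higher and 63.4% of the bright promoters, CCAAT in 34.9%, 39% and 38.4%, and TATAAA in 6.84%, 7.16% and 6.86%. GGATTA and GATTNAATC, searched as homeobox-type letters, were in 6.13% and 0.472% of the lower, 7.59% and 0.434% of the higher, and 5.4% and 0.134% of the bright promoters. Only the 1 gene Prdm2 was called higher and 0 lower, so shares among called genes were not computed. A match is a description of letters, not a site. The 60 bases before the start are shown, with CCGGAAG or its complement in capitals, for 4 genes that were lower at the unadjusted threshold and hold the motif there, and for Bmp15, whose window has no match; the 4 were chosen after their values were seen.
Nvl, chr1:181144205-181144264, minus strand: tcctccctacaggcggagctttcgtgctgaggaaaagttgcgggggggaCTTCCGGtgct
Gar1, chr3:129831397-129831456, minus strand: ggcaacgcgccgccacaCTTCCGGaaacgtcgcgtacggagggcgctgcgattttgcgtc
Polr1c, chr17:46248046-46248105, minus strand: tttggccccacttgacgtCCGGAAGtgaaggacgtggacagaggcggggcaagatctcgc
Snrpb2, chr2:143063009-143063068, plus strand: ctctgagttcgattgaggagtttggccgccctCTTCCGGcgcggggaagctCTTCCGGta
Bmp15, chrX:6320725-6320784, minus strand: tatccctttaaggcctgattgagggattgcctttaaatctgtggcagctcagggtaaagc
Gar1 encodes a protein of the snoRNPs that modify ribosomal RNA (-0.43 ± 0.14), Polr1c a subunit of RNA polymerases I and III (-0.63 ± 0.24) and Snrpb2 a protein of the U2 snRNP (-0.65 ± 0.24).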

How the data were processed

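The authors deposited log2 values made with RMA in Partek (versions not given in the sources used here), which background-corrects, quantile-normalizes and summarizes probes, after the RNA of each embryo was amplified on its own (NuGen WT-Ovation One-Direct). Of 28815 probe sets, 21780 have 1 gene in the platform annotation, 1605 several and 5430 none. The 19 probe sets with a scoring symbol were left out of tests. Groups were fitted with limma 3.58.1 in R 4.3.3 (lmFit, eBayes, two-sided, Benjamini-Hochberg over 28796 probe sets, adjusted p under 0.1 as in the methods). The fit was tried on simulated, independent probe sets with known changes. That trial does not bear on false calls in groups chosen on the same arrays. Of several probe sets of a gene, the brightest on average was used. Where fewer than 5 genes passed in a direction, the 10 with the smallest p whose higher group averaged at or above the median probe set were named, and 2 members of each list. Prdm2 was named for its called probe set, outside this rule. Members, lists and motifs were chosen with earlier results of these data known. Synonyms placed older symbols. The number of embryos limits the precision. Alternatives covered scaling, group size, score genes, covariates and single embryos.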

Additional observations from a re-analysis of the deposited data

Results flagged for a closer look

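In 63 named genes, 126 groups of 6 embryos were checked for 1 embryo far from the other 5. Such an embryo was found in 8 of the 126 groups, close to the about 5% of groups that chance alone gives. In the high-scoring group these were Myc at 7.61 in PargC-3, Tiparp, a mono-ADP-ribosyltransferase, at 11.69 in PargB-1, and Ppbp, a platelet chemokine, at 6.77 in WT1-2. In the low-scoring group they were Rps14 at 12.73, Ppbp at 5.07 and Ptgs2 at 6.14, all in PargC-1, Usp9y at 4.83 in PargC-2 and Gja1 at 9.54 in PargA-1.

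The difference between the score groups depended on genotype for 1 unnamed probe set, by limma's interaction term over 28796 probe sets (adjusted p = 0.0449). At an unadjusted p under 0.05, 957 passed, fewer than the 1440 that this threshold would pass by count alone. In the unnamed probe set, high-scoring were lower than low-scoring WT embryos by -3.96 ± 0.45 (SE, 3 against 3). High-scoring were higher than low-scoring Parg(110)-/+ embryos by 2.56 ± 0.45, an interaction of 6.52. The values ran from 3.77 to 8.74 over the 12 embryos and fell into a cluster near 4 and one at about 6 to 9. The cluster near 4 lies below the median of all probe set means (6.47). Embryos not compared showed both levels within each genotype, with 7.46 in WT3-1 against 4.04 in WT3-2 and 6.01 in PargA-2 against 4.13 in PargA-3.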

How the results depend on the processing

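Of 31 alternatives, 28 were planned and 3 were chosen after seeing the data. Scoring again kept 4 to 6 of the high-scoring and 3 to 6 of the low-scoring embryos and crossed 0. The 4 higher calls became 0 with equal array medians, 5 against 5 embryos, 9 against 9 embryos, genotype as a covariate, the array median as a covariate, the plain one-way test of the methods, an adjusted p under 0.05, and scores without Tdpoz, without Usp17l or of family means. Without Tdpoz, 1 probe set, Utp23, was lower. The score over 18 embryos gave 23 higher and 22 lower, with genotype as a covariate 19 and 21, and over 17 embryos without PargB-1 7 and 2. At an unadjusted p under 0.05, 9 against 9 embryos gave 503 higher. Leaving out each embryo gave 0 to 4 higher and 0 lower calls, and 789 to 988 higher and 843 to 1185 lower at an unadjusted p under 0.05.

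List medians changed sign under no alternative for 11 of 25 lists, among them ribosomal proteins, ribosome biogenesis, oxidative phosphorylation, the proteasome, splicing factors and maternal oocyte genes. Most alternatives use the same embryos and groups again, so a kept sign is no further support for these lists. With 9 against 9 embryos, which adds embryos near the middle, ribosome biogenesis had -0.0924 and maternal oocyte genes 0.0577. Of 1327 values of 43 other list genes 6 changed sign, namely Ppbp (-0.0100 with 5 against 5), Obox5 (-0.0242 with 9 against 9), Usp9y (-0.17) and Alas2 (0.0428) without Usp17l, and Obox7 (-0.0256) and Usp9y (-0.0548) with family means. Replicate numbers name embryos within a father and pair none across the score groups, so embryos could not be paired by them. Fathers WT1, WT2 and PargC had embryos in both groups, in unequal numbers, and within them only list medians are given. Father as a random block (correlation within fathers -0.0155) left 4 higher and 0 lower calls.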
